A study of Rattus norvegicus with 18 samples.

Results

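The responses of cultured rat nucleus pulposus cells to PDS and to Braco-19, a pair of small molecules that bind G-quadruplexes, were set against each other gene by gene. The quantity described throughout is the PDS change, PDS minus its own controls, minus the Braco-19 change, Braco-19 minus its own controls, on the log2 scale. It rests on 12 of the 18 RNA sequencing libraries of the series, chosen by their sample labels: 3 with PDS, 3 PDS controls, 3 with Braco-19 and 3 controls whose labels name no compound. The last of these groups was taken as the Braco-19 control because the other control groups carry the names of PDS and Phen-DC3. All cells came from the nucleus pulposus, the gelatinous core of the intervertebral disc, of Sprague Dawley rats aged 8 weeks. They were grown in medium with serum, and the compounds were present for 24 hours. The labels give no dose, do not say what the controls received, and do not say whether libraries of a group came from separate animals or cultures. The p-values therefore measure a difference against the spread between libraries, and differences of compound, dose and culture cannot be told apart.

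A G-quadruplex is a 4-stranded fold of guanine-rich DNA or RNA, found at telomeres, in many promoters and in RNA. PDS is the common abbreviation of pyridostatin, a pyridine dicarboxamide carrying quinoline arms, and Braco-19 is a substituted acridine. Both stack on quadruplex ends and stabilise the fold, which can obstruct DNA polymerases and RNA polymerase. Such ligands are known for DNA damage signals in dividing cells, and fragments of damaged DNA in the cytosol are known to raise interferon genes. Only this 1 pair of compounds was compared.

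The 12 libraries held 16154796 to 18369443 counts each, and the control cultures of the PDS and Braco-19 experiments stood far apart. Of 14184 tested genes, 10398 (73.3%) differed between the PDS controls and the Braco-19 controls. Fn1, which encodes fibronectin, took 0.719 to 1.02% of the counts in the PDS experiment and 6.49 to 7.77% in the Braco-19 experiment. Mki67, the proliferation antigen, stood at 29.5, 19.6 and 27.3 CPM in the PDS controls, 38.9, 41.4 and 52.7 CPM with PDS, 580.4, 607 and 644 CPM in the Braco-19 controls, and 544, 458 and 433 CPM with Braco-19. Genes longer than 5000 bases took 7.98 to 9.08% of the counts in the PDS experiment and 23.3 to 25.4% in the Braco-19 experiment. Of 20 markers of the nucleus pulposus and its notochord precursor, Krt19, Shh and Tbxt were at 0 counts in all 12 libraries. Krt18 and Foxa2 reached at most 0.112 and 0.392 CPM. Others were present in both experiments: over the 12 libraries Pax1 stood at 75.1 to 116 CPM, Foxf1 at 34.2 to 48, Cd24 at 11.4 to 39.1, Cdh2 at 22.6 to 32.8 and Krt8 at 6.24 to 16.1. Acan, the aggrecan core protein, was at 0.118 to 0.411 CPM in the PDS experiment and 1.08 to 3.44 CPM in the Braco-19 experiment. Mgp, a matrix protein of cartilage-like cells, reached 5630 to 7200 and 1890 to 2830 CPM in the same order, and the annulus and fibroblast collagen Col1a1 1070 to 1520 and 4250 to 5960 CPM. Other annulus and fibroblast markers went both ways. Tnc (582 to 853 and 1530 to 2010 CPM), Mkx and Pdgfra were also lower in the PDS experiment. Scx (85.2 to 110 and 46.6 to 77.1 CPM) and Thy1 (809 to 951 and 504 to 640 CPM) were higher there, and Dcn and Lum overlapped. Of 15 macrophage and leukocyte markers C1qa, C1qb, C1qc and Ptprc were at 0 in all 12 libraries, while Cd14 stood at 107 to 120 CPM in the PDS experiment and 31.1 to 42.7 CPM in the Braco-19 experiment. Cd68 went the other way, at 0.786 to 1.54 and 2.43 to 4.63 CPM in the same order. Of 10 endothelial markers Cdh5, Cldn5 and Emcn were at 0, while Egfl7 was at 25.9 to 31.6 CPM in the PDS controls, 18.3 to 22.3 with PDS, 6.28 to 11.4 in the Braco-19 controls and 11.2 to 15 with Braco-19, and its difference was called below 0. The Egfl7 call was lost without PDS replicate 2 or 3, any PDS control replicate, Braco-19 replicate 2 or 3, or control replicate 1 or 3. Of 6 erythroid markers Hbb and Hba-a1 were at 0 and Ahsp at 0.223 to 1.54 CPM. The part of other cell types in the results was not tested. CPM here means CPM on library sizes scaled by TMM factors. Each group has n = 3 libraries, and a value after ± is the standard error of a log2 value or the SD of a CPM.

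More genes passed the test under PDS than under Braco-19, by a margin that depended on the settings, and most genes whose changes differed had estimates of opposite sign. PDS changed 1148 genes (8.09% of those tested), 728 higher (5.13%) and 420 lower (2.96%). Braco-19 changed 39 (0.275%), 24 higher and 15 lower. The Braco-19 count moved with single libraries, to 1 without Braco-19 replicate 3, 3 without control replicate 1, 4 without Braco-19 replicate 2, 6 without control replicate 3, 19 or 20 without PDS replicate 1 or 2 or control replicate 2, and 153 without Braco-19 replicate 1. DESeq2 gave 359, and limma-voom 1808 against 2265 for PDS. The SD of the changes over all tested genes was 0.456 under PDS and 0.401 under Braco-19. The difference between the changes was called in 1990 genes (14.0%), with 1033 (7.28%) above 0, meaning more positive under PDS, and 957 (6.75%) below 0, meaning more positive under Braco-19. Of these 1990 genes, 1914 (96.2%) had estimates of opposite sign under the compounds, against 67.5% of all tested genes, and 1297 had the larger absolute estimate under PDS. The rule of the difference itself favours opposite signs, so this share is a description. A gene is called here at an adjusted p under 0.05 by edgeR's quasi-likelihood test with Benjamini-Hochberg adjustment over all tested genes, and the adjusted p-values below come from that test.

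Most of these genes were called under 1 compound at most. In 1122 of the 1990 genes neither compound passed the test alone, in 843 PDS alone did, in 16 Braco-19 alone did, and in 9 both did. Across the 14184 genes the changes had a Pearson correlation of -0.202 and a Spearman correlation of -0.382, a description across genes, which are not independent replicates. The PDS and Braco-19 changes share no library. Gene length moved with both: the Spearman correlation with length was 0.174 for the PDS change, -0.225 for the Braco-19 change and 0.226 for their difference. After each library was corrected for its length trend, the changes still had a Spearman correlation of -0.362, and 1032 genes lay above and 974 below 0. A fit on the 12 libraries alone, without the more variable Phen-DC3 groups, called 888 genes for Braco-19 (6.36% of 13968, with 4.31% higher and 2.05% lower), 1790 for PDS (12.8%, with 6.55% higher and 6.26% lower) and 3239 for the difference (23.2%), 1512 above 0 (10.8%) and 1727 below 0 (12.4%). In that fit 75.3% of genes differed between the control groups. Single libraries also moved the count, which was 896 without PDS replicate 3 and 975 without Braco-19 replicate 2, and 2353 without Braco-19 replicate 1.

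**Figure D1:**
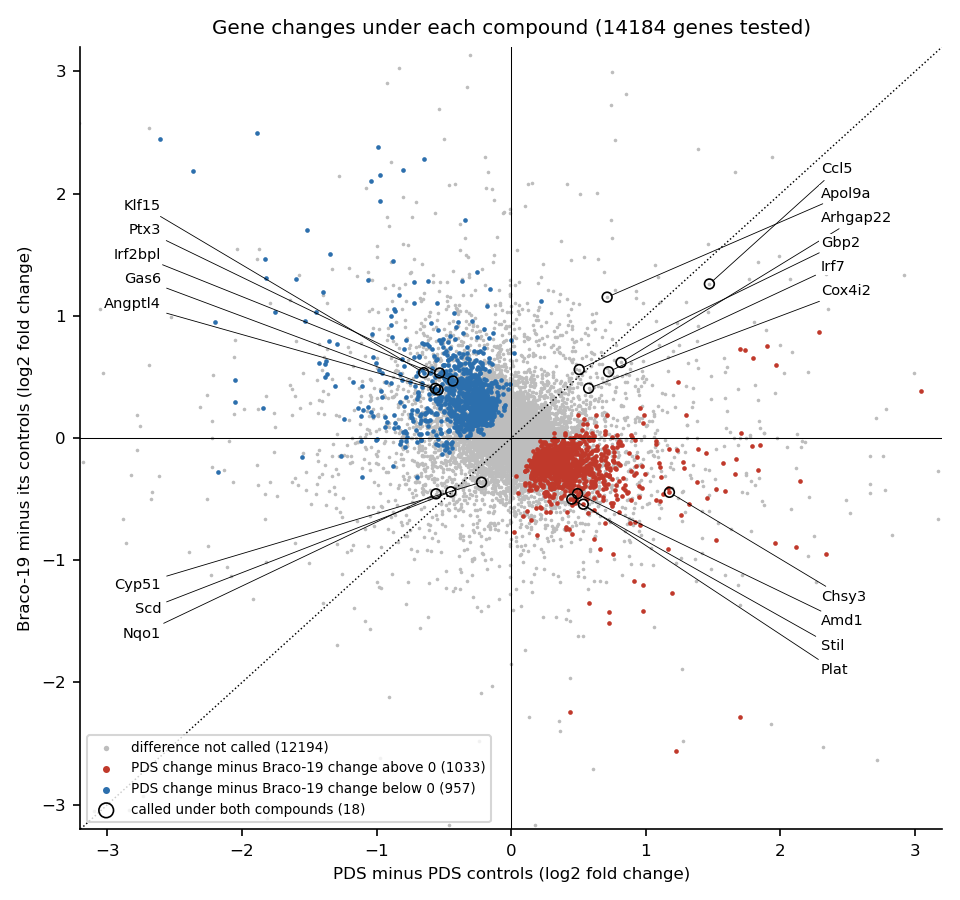
Change of each of 14184 tested genes under PDS (x axis) and under Braco-19 (y axis), each against its own controls, in log2 units; the dotted line marks equal change. Red points (1033) and blue points (957) are genes whose changes differed, and they fill the lower right and upper left corners, while rings mark the 18 genes called under both compounds; 33 genes lie outside the axes.

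Only 18 genes were called under both compounds, which is 1.57% of the genes called for PDS and 46.2% of those called for Braco-19. They split evenly into 9 that moved in opposite directions and 9 that moved the same way, and the difference was called in all 9 opposite genes and in 0 of the 9 others. Passing in opposite directions nearly fixes that outcome, so it restates how the 9 were chosen. Among those others 1, Apol9a, reached an unadjusted p under 0.05. Chsy3, Plat, Amd1 and Stil rose under PDS and fell under Braco-19. Gas6, Angptl4, Ptx3, Irf2bpl and Klf15 fell under PDS and rose under Braco-19. The fit on the 12 libraries alone found 119 and 216 genes in these arrangements, and 27 and 8 that rose or fell under both. Without Braco-19 replicate 1 the opposite arrangements held 14 and 15 genes. They held 0 and 1 without Braco-19 replicate 2 or control replicate 1, 0 and 0 without Braco-19 replicate 3, 3 and 2 without control replicate 2, and 2 and 1 without control replicate 3.

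Among the genes raised by PDS and lowered by Braco-19, Chsy3 encodes a chondroitin synthase, an enzyme that polymerises the sugar chains of disc proteoglycans. Chsy3 stood at 33.1, 31.7 and 34.7 CPM in the PDS controls, 73.2, 72.2 and 79.3 CPM with PDS, 107, 87.3 and 92.8 CPM in the Braco-19 controls, and 72.6, 64.4 and 74.1 CPM with Braco-19. In each experiment the treated and control libraries did not overlap, and the controls of the Braco-19 experiment were the highest of the 4 groups. The log2 change was 1.18 ± 0.09 under PDS (adjusted p = 1.02e-07) and -0.44 ± 0.09 under Braco-19 (adjusted p = 0.0343), a difference of 1.62 ± 0.13 (adjusted p = 2.96e-07). Plat, the tissue-type plasminogen activator, was at 116, 102 and 129.5 CPM in the PDS controls, 156, 174 and 173 CPM with PDS, 212, 168 and 168 CPM in the Braco-19 controls, and 131, 119 and 127 CPM with Braco-19. The PDS libraries lay above and the Braco-19 libraries below all of their own controls. The Plat changes were 0.54 ± 0.09 and -0.54 ± 0.09, and differed by 1.08 ± 0.13 (adjusted p = 5.74e-05). Amd1, adenosylmethionine decarboxylase of the polyamine pathway, stood at 86.9, 71.9 and 81.9 CPM in the PDS controls, 111, 106 and 121 CPM with PDS, 168, 156 and 160.4 CPM in the Braco-19 controls, and 122, 117 and 115 CPM with Braco-19. Its changes of 0.49 ± 0.09 and -0.46 ± 0.08 differed by 0.95 ± 0.12 (adjusted p = 6.72e-05). Stil, a centriole duplication protein, was at 17.6, 14.1 and 15.2 CPM in the PDS controls, 21, 20.6 and 22.5 CPM with PDS, 61, 62.2 and 60.4 CPM in the Braco-19 controls, and 44.9, 44.3 and 40.6 CPM with Braco-19. Every library of the Braco-19 experiment had a higher Stil level than any of the PDS experiment, and the changes of 0.45 ± 0.10 and -0.50 ± 0.09 differed by 0.95 ± 0.14 (adjusted p = 0.00024).

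Of the genes lowered by PDS and raised by Braco-19, Gas6 encodes the ligand of the TAM receptor kinases. Gas6 stood at 719, 744 and 716 CPM in the PDS controls, 494, 489 and 491 CPM with PDS, 329, 349 and 339 CPM in the Braco-19 controls, and 416, 499.8 and 432 CPM with Braco-19. The 3 PDS libraries lay close together, below all their controls, and the 3 Braco-19 libraries lay above all of theirs. The changes were -0.56 ± 0.07 (adjusted p = 2.61e-05) and 0.41 ± 0.07 (adjusted p = 0.0157), with a difference of -0.97 ± 0.10 (adjusted p = 7e-06). Angptl4, a secreted inhibitor of lipoprotein lipase, was at 375, 402 and 378 CPM in the PDS controls, 268, 262 and 263 CPM with PDS, 55.9, 49.1 and 45.9 CPM in the Braco-19 controls, and 65.9, 65.3 and 66.9 CPM with Braco-19. Its level was several times higher in the PDS experiment, and its changes of -0.54 ± 0.07 and 0.39 ± 0.07 differed by -0.94 ± 0.10 (adjusted p = 9.06e-06). Ptx3, a long pentraxin secreted at sites of inflammation, stood at 72.8, 66.3 and 72.8 CPM in the PDS controls, 48.7, 50.8 and 47 CPM with PDS, 14.7, 16.7 and 18.1 CPM in the Braco-19 controls, and 23.8, 22.8 and 24.9 CPM with Braco-19. The changes were nearly equal in size and opposite in sign, -0.53 ± 0.08 and 0.53 ± 0.09, a difference of -1.06 ± 0.12 (adjusted p = 1.69e-05). Irf2bpl, a partner of the interferon regulatory factor IRF2, was at 43, 45.5 and 43.4 CPM in the PDS controls, 32.2, 32.3 and 33.1 CPM with PDS, 34.2, 31 and 31.7 CPM in the Braco-19 controls, and 41.4, 46.5 and 46.1 CPM with Braco-19. The PDS libraries lay below and the Braco-19 libraries above all of their controls. The changes were -0.43 ± 0.10 and 0.47 ± 0.10, with a difference of -0.90 ± 0.13 (adjusted p = 0.000327). Klf15, a transcription factor induced by glucocorticoids, stood at 34.9, 36.1 and 36.4 CPM in the PDS controls, 20.9, 24.6 and 23 CPM with PDS, 17.8, 17 and 15.3 CPM in the Braco-19 controls, and 20.8, 26.2 and 25.6 CPM with Braco-19. It had the most negative difference of the 5, -1.19 ± 0.14 (adjusted p = 3.12e-05), from -0.65 ± 0.10 and 0.53 ± 0.10.

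**Figure D2:**
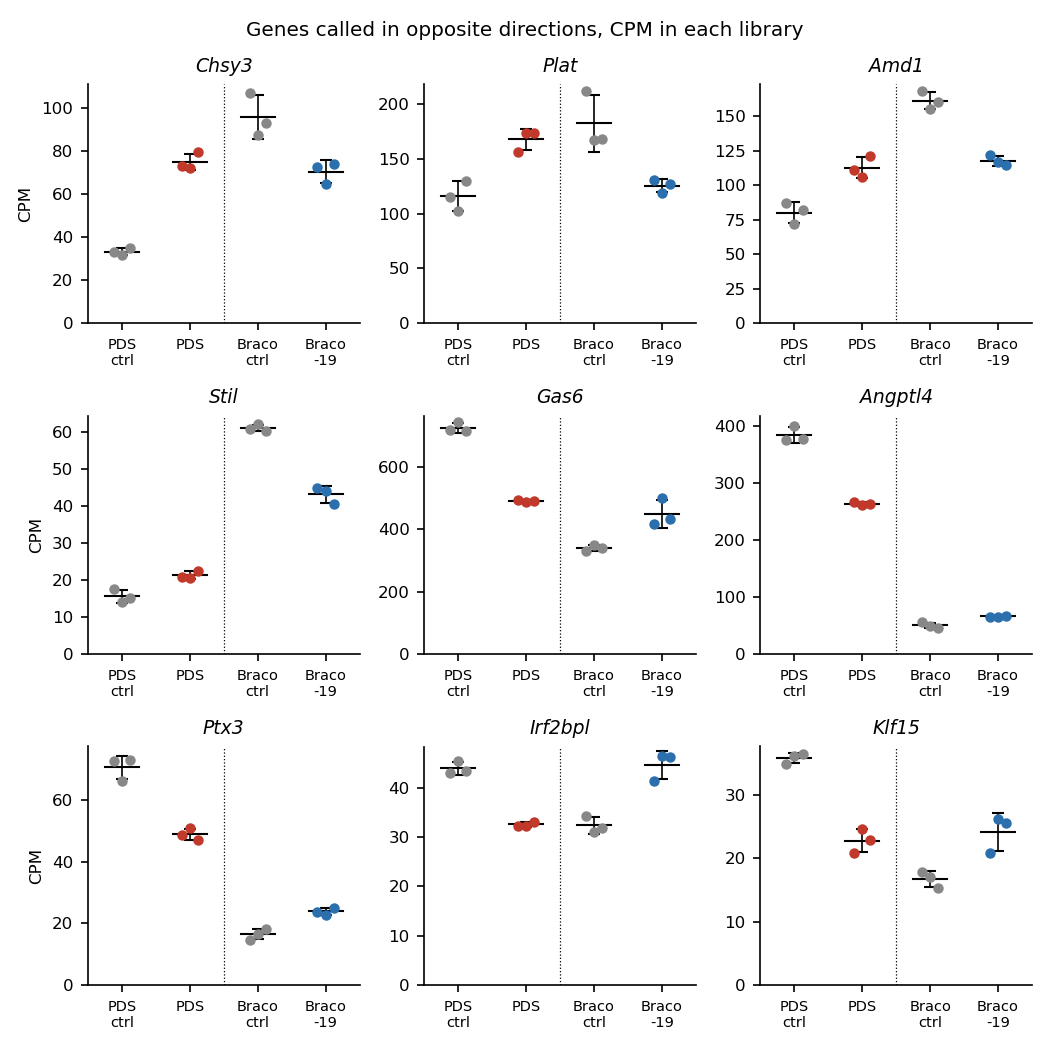
CPM of the 9 genes called in opposite directions, one panel per gene, in each library (points), with the mean (line) and SD (bars) of the 3 libraries of a group; the dotted line separates the PDS experiment from the Braco-19 experiment. In every panel the treated libraries lie on opposite sides of their own controls, and Angptl4, Ptx3 and Stil also differ several-fold between the experiments.

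In the deposited table these genes are Chsy3 (ENSRNOG00000050152, chromosome 18, 54243949 to 54496585), Plat (ENSRNOG00000019018, chromosome 16, 74098260 to 74122889), Amd1 (ENSRNOG00000000585, chromosome 20, 45384000 to 45399694) and Stil (ENSRNOG00000057760, chromosome 5, 133819726 to 133851416). The genes of the reverse arrangement are Gas6 (ENSRNOG00000018233, chromosome 16, 81213364 to 81243757), Angptl4 (ENSRNOG00000007545, chromosome 7, 18627808 to 18634079), Ptx3 (ENSRNOG00000012280, chromosome 2, 158097843 to 158103653), Irf2bpl (ENSRNOG00000011026, chromosome 6, 110901940 to 110904288) and Klf15 (ENSRNOG00000017808, chromosome 4, 122365093 to 122377659). The build of these coordinates was not given in the sources used here.

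Because both compounds bind guanine-rich folds, the promoters of the opposite genes were searched for a quadruplex motif, 4 runs of at least 3 G separated by loops of 1 to 7 bases, on either strand, in the 250 bases before and 50 after the RefSeq start (GRCr8). Promoters were matched for 8 of the 9 genes, and 3 held the motif, in Gas6, Ptx3 and Irf2bpl, against 5563 of all 33469 RefSeq promoters of that length (16.6%) and 2488 of the 9919 tested genes with a promoter in the table (25.1%). In the same window the 41 matched of 46 mitosis genes described below held it in 5 (12.2%). The share was 18.2% in the replication list, 11.4% in that of nuclear oxidative phosphorylation, and 23.5% in that of quadruplex helicases and binding proteins. Of the 9 genes that moved the same way, 7 were matched (77.8%) and 2 held it (28.6%), Cyp51 and Scd. The motif thus also stood in genes that fell under both compounds. G runs of this kind also hold GC boxes, the binding sequence of Sp1. The 250 bases upstream of Ptx3 and Gas6 are printed because these genes moved oppositely under ligands of the fold, with capitals for the motif, here read as C runs because the G runs are on the other strand. Ptx3 lies at chr2:152797313-152797562 and Gas6 at chr16:82747426-82747675, both on the plus strand, and each run is 5′ to 3′ along the gene.
Ptx3: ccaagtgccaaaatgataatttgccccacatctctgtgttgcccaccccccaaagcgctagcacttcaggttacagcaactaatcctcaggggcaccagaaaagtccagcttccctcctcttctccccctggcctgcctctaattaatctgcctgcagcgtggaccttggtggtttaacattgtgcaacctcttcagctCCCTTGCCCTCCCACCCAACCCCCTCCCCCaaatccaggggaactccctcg
Gas6: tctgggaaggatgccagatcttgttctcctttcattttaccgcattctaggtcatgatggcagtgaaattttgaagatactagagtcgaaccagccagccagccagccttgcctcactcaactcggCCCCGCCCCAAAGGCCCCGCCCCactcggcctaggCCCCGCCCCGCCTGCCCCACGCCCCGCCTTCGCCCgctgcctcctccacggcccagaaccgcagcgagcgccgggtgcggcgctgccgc
A match is a string of letters and was not tested as a folded structure or as a binding site. Over larger sets the comparison was void, since fewer than 80% of all tested genes (69.9%) and of the genes called above 0 (75.1%) or below 0 (76.4%) had a promoter in the table. The 25.1% of tested genes and the 28.6% of genes that moved the same way fall under that limit too, and stand as descriptions. Among matched genes called above 0 the share was 27.6%, and among those below 0 it was 28.5%.

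The 9 genes that moved the same way included several known to be induced by interferon. Irf7, the interferon regulatory factor that amplifies type I interferon, stood at 24.1, 31.7 and 29.2 CPM in the PDS controls, 41.7, 47.5 and 51.2 CPM with PDS, 15.2, 14.5 and 14.6 CPM in the Braco-19 controls, and 19.6, 23.1 and 21.9 CPM with Braco-19. Gbp2, a guanylate-binding GTPase induced by interferon, was at 27.9, 28.6 and 28.9 CPM in the PDS controls, 38.8, 39.7 and 42.7 CPM with PDS, 17.8, 16.5 and 20.1 CPM in the Braco-19 controls, and 26.4, 27.8 and 26.1 CPM with Braco-19. Apol9a, an apolipoprotein L family member, was at 17.1, 20.9 and 18.9 CPM in the PDS controls, 30.9, 31.6 and 30.8 CPM with PDS, 7.77, 11.6 and 11.1 CPM in the Braco-19 controls, and 20.5, 25.4 and 22 CPM with Braco-19. In all 3 genes every treated library lay above every control of its own experiment. Their changes were 0.72 ± 0.10 and 0.54 ± 0.11 for Irf7, 0.50 ± 0.08 and 0.56 ± 0.09 for Gbp2, and 0.71 ± 0.14 and 1.15 ± 0.15 for Apol9a, PDS first. The differences were 0.18 ± 0.15, with a 95% interval of -0.13 to 0.49, -0.06 ± 0.12 (-0.31 to 0.19) and -0.44 ± 0.21 (-0.87 to -0.01), with adjusted p = 0.418, 0.786 and 0.147. The chemokine Ccl5 stood at 4.47, 3.24 and 6.47 CPM in the PDS controls, 12.4, 14.4 and 12.6 CPM with PDS, 2.49, 2.55 and 2.62 CPM in the Braco-19 controls, and 5.38, 6.30 and 6.70 CPM with Braco-19, changes of 1.47 ± 0.24 and 1.26 ± 0.25 whose difference was 0.21 ± 0.35 with an interval of -0.51 to 0.94 (adjusted p = 0.715). The Ccl5 interval is far wider than that of Gbp2, at a lower level.

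Cox4i2, the hypoxia-induced isoform of a cytochrome oxidase subunit, rose under both compounds from levels far apart, at 119, 136 and 121 CPM in the PDS controls, 189.5, 188 and 183 CPM with PDS, 17.7, 17.4 and 17.6 CPM in the Braco-19 controls, and 22.7, 24.8 and 22.3 CPM with Braco-19. Its difference was 0.17 ± 0.11, with an interval of -0.07 to 0.40. Arhgap22, a GTPase-activating protein for Rac, was the sixth gene to rise under both, by 0.82 ± 0.12 and 0.62 ± 0.12 (difference 0.20 ± 0.17, interval -0.17 to 0.56). The 3 genes that fell under both were Nqo1, a quinone reductase under NRF2 control, Cyp51, the sterol demethylase of cholesterol synthesis, and Scd, the stearoyl-CoA desaturase. Nqo1 stood at 185, 184 and 187 CPM in the PDS controls, 134, 125 and 119 CPM with PDS, 356, 306 and 314 CPM in the Braco-19 controls, and 249.4, 207 and 255 CPM with Braco-19. Its changes of -0.56 ± 0.08 and -0.46 ± 0.08 differed by -0.10 ± 0.12 (interval -0.35 to 0.14, adjusted p = 0.581). Cyp51 had changes of -0.22 ± 0.06 and -0.36 ± 0.06 (difference 0.14 ± 0.09, interval -0.04 to 0.32), and Scd of -0.45 ± 0.09 and -0.44 ± 0.09 (difference -0.01 ± 0.13, interval -0.28 to 0.26). For none of the 9 was the difference called, which does not show that the compounds act alike on them.

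**Figure D3:**
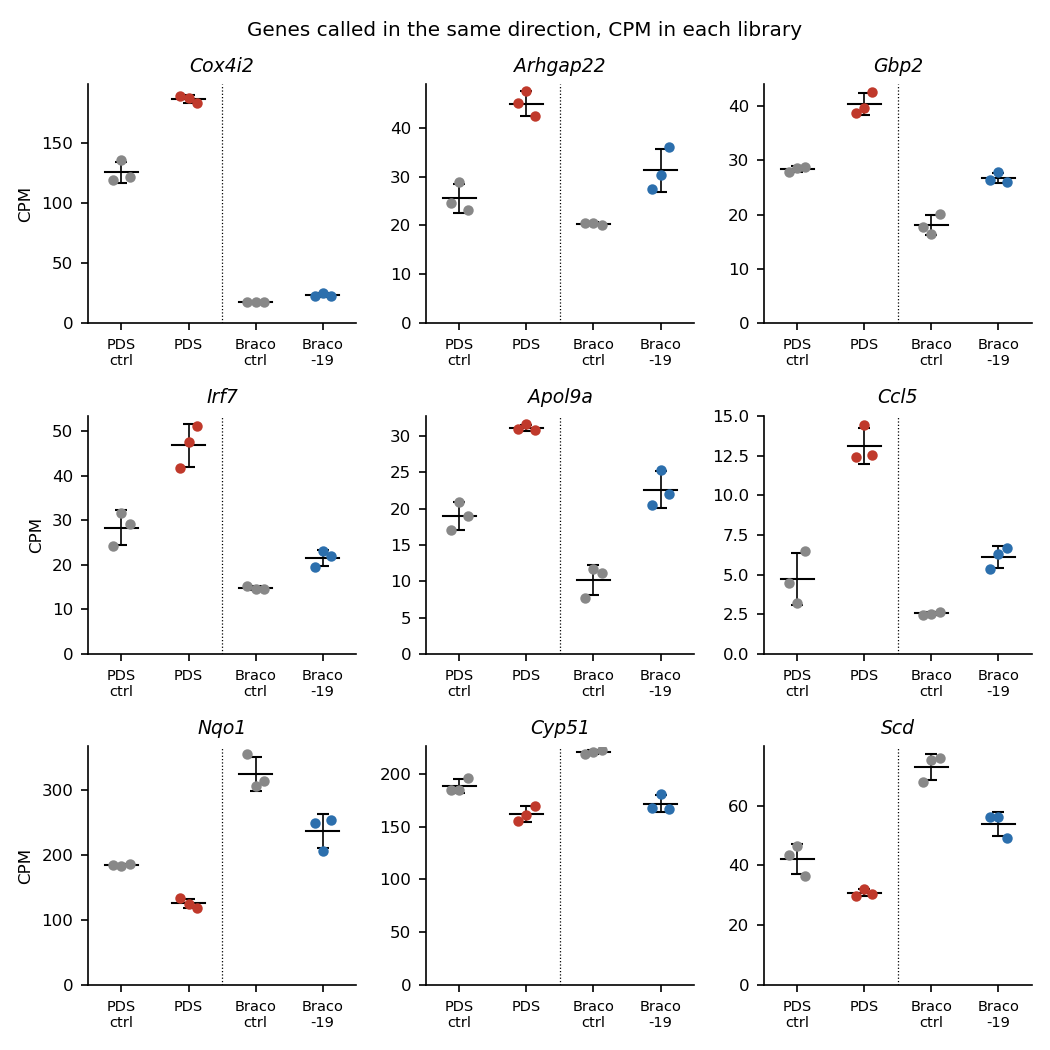
CPM of the 9 genes called in the same direction under both compounds, in each library (points), with the mean (line) and SD (bars) of the 3 libraries of a group; the dotted line separates the PDS experiment from the Braco-19 experiment. Cox4i2, Arhgap22, Gbp2, Irf7, Apol9a and Ccl5 lie above their own controls with either compound, and Nqo1, Cyp51 and Scd below.

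The promoter of Gbp2 is printed because Gbp2 rose under both compounds and holds the core of the interferon-stimulated response element, GAAA followed after any 2 bases by GAAA, searched on both strands. The motif stood in 1312 of 33469 RefSeq promoters (3.92%). The match, in capitals, is on the other strand of the 250 upstream bases at chr2:234005477-234005726 (GRCr8, plus strand).
Gbp2: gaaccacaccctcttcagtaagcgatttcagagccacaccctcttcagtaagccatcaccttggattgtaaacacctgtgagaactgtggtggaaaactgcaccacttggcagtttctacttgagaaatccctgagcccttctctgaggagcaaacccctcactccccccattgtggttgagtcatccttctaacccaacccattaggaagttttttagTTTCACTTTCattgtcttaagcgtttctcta
Matched promoters of Irf7 and Apol9a also held this motif. For the interferon list as a whole the share was void, as 32 of 42 genes (76.2%) had a promoter in the table.

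The 12 largest differences above 0 included those of Susd5, Plau, Ptgs2 and Tfrc. Susd5, a sushi-domain membrane protein, had the largest, at 2.60, 2.83 and 3.65 CPM in the PDS controls, 10.7, 9.50 and 8.57 CPM with PDS, 34.4, 34.2 and 35 CPM in the Braco-19 controls, and 25.9, 28.5 and 30.03 CPM with Braco-19. The PDS libraries lay above and the Braco-19 libraries below their own controls, and the difference was 1.95 ± 0.18 (adjusted p = 2.36e-06). Plau, the urokinase plasminogen activator, stood at 6.41, 6.78 and 6.71 CPM in the PDS controls, 25.8, 25 and 20.9 CPM with PDS, 12.4, 10.7 and 12 CPM in the Braco-19 controls, and 9.80, 10.8 and 13.2 CPM with Braco-19. PDS raised it by 1.85 ± 0.14, the Braco-19 libraries overlapped their controls (-0.06 ± 0.13, adjusted p = 0.849), and the difference was 1.9 ± 0.19 (adjusted p = 5.85e-06). Ptgs2, the inducible cyclooxygenase, was at 197, 146 and 177 CPM in the PDS controls, 333, 316 and 359 CPM with PDS, 1278, 958 and 1091 CPM in the Braco-19 controls, and 732, 548 and 750.4 CPM with Braco-19. It rose under PDS (0.95 ± 0.18), had a change of -0.71 ± 0.18 under Braco-19 that did not pass the test (adjusted p = 0.113), and a difference of 1.67 ± 0.25 (adjusted p = 0.00144). Tfrc, the transferrin receptor that takes up iron, stood at 90.2, 74.5 and 89.9 CPM in the PDS controls, 198, 197 and 223 CPM with PDS, 216, 203 and 187 CPM in the Braco-19 controls, and 175, 173 and 179.8 CPM with Braco-19, a difference of 1.47 ± 0.14 (adjusted p = 3.99e-06).

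The others of the 12 largest differences above 0, beside Chsy3, had these log2 values. They were 1.86 ± 0.31 for Il23a, a subunit of interleukin-23, and 1.85 ± 0.28 for Acod1, the enzyme that makes itaconate. Evi2a, a membrane protein gene within an intron of Nf1, reached 1.77 ± 0.27, and Gas7, a growth-arrest adaptor of actin, 1.48 ± 0.29. The morphogen Bmp2 reached 1.57 ± 0.21, the cytokine Il6 1.43 ± 0.31, and Rsad2, the antiviral protein viperin, 1.42 ± 0.46. Il6 stood at 3.81, 2.83 and 4.67 CPM in the PDS controls, 7.71, 8.41 and 8.28 CPM with PDS, 5.47, 5.58 and 4.18 CPM in the Braco-19 controls, and 5.38, 3.18 and 3.69 CPM with Braco-19, low in every library. Rsad2 rose under PDS by 2.29 ± 0.35, and its Braco-19 libraries also lay above their controls, at 0.87 ± 0.31 (adjusted p = 0.172). The Rsad2 difference lost its call in 19 of 23 alternatives, among them every omission of 1 library. Gas7 and Il6 lost theirs only in the test against a minimum difference.

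At the other end, Tril, a toll-like receptor accessory protein, had the largest difference below 0. Tril stood at 27.1, 31.5 and 23.4 CPM in the PDS controls, 10.4, 12.6 and 10.04 CPM with PDS, 7.28, 7.77 and 6.92 CPM in the Braco-19 controls, and 9.58, 11.4 and 8.49 CPM with Braco-19, with PDS libraries below and Braco-19 libraries above their own controls. The changes were -1.31 ± 0.13 and 0.42 ± 0.14, the latter not called (adjusted p = 0.147), and differed by -1.73 ± 0.19 (adjusted p = 1.18e-05). Scara5, a scavenger receptor that takes up ferritin iron, was at 139.8, 142 and 133 CPM in the PDS controls, 56.1, 58.2 and 61 CPM with PDS, 51.9, 56.8 and 57.3 CPM in the Braco-19 controls, and 62.2, 66.6 and 55.7 CPM with Braco-19. It fell under PDS by 1.24 on the log2 scale, to the level of the Braco-19 experiment, where treated and control libraries overlapped, and the difference was -1.39 ± 0.11 (adjusted p = 2.96e-07). Tfrc and Scara5 thus differed in opposite directions, while 1 of the 12 tested iron genes was called above 0 and 1 below 0.

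The other 10 of the 12 largest differences below 0 included Flot1, a membrane raft scaffold, at -1.49 ± 0.21, Naprt, an enzyme of NAD synthesis, at -1.45 ± 0.21, and Ramp3, a modifier of calcitonin-type receptors, at -1.39 ± 0.18. Gas1, a growth-arrest protein that binds hedgehog, had a difference of -1.53 ± 0.28 and Thoc6, a subunit of the mRNA export complex, of -1.42 ± 0.23. In Flot1, Naprt, Ramp3 and Thoc6 all PDS libraries were below and all Braco-19 libraries above their controls. Crip1, a LIM protein, and Zswim8, a ubiquitin ligase adaptor, had -1.53 ± 0.42 and -1.45 ± 0.47, and each lost its call in 12 of 23 alternatives, omissions of single libraries among them. Values of Rps20 (-1.42 ± 0.37), Rps19l2 (-1.72 ± 0.45) and Ndufb6 (-1.40 ± 0.34) are uncertain, because near-identical copies of these genes could have shared or split their reads, which was not tested. They lost their calls in 9, 8 and 5 of 23 alternatives in that order, omissions of single libraries among them.

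Most mitosis genes rose under PDS. The list had mostly negative and uncalled changes under Braco-19, and had the largest share of called differences among the lists. Of 46 tested genes of mitosis and the spindle, 36 were called above 0 and 0 below, against 7.28% and 6.75% of all tested genes. PDS raised 38 and Braco-19 changed 0 by the adjusted test, against 5.13% raised and 0.275% changed over all tested genes. These all-gene shares are the background for the adjusted calls in each list below. Over all 14184 tested genes the difference had an unadjusted p under 0.05 in 4511, both directions together. That is the background for unadjusted counts of the difference, and the matching counts for each compound alone are not given here. At an unadjusted p under 0.05 Braco-19 lowered 16 and raised 3, the difference was below 0 in 0, and the fit on the 12 libraries alone found 6 lowered. DESeq2 and limma-voom each called 40 differences above 0 and 0 below. Over all 14184 tested genes DESeq2 called 1349 above and 1299 below, and limma-voom 1971 and 1811. The 36 became 2 with a required log2 difference of at least 0.5, and 28 to 37 when single libraries were left out. The median log2 change was 0.50 under PDS and -0.185 under Braco-19, and the median difference 0.636, against 0.020, 0.0023 and 0.017 over all tested genes. In 35 members the estimate was above 0 under PDS and below 0 under Braco-19, and in 11 above 0 under both. The starting level differed with it: the list's median was lower in the PDS controls than in the Braco-19 controls by 1.35 on the log2 scale, and the part of that level in the difference was not tested. In bulk RNA a change in the share of dividing cells and a change of RNA per cell cannot be told apart.

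Mki67, whose 12 values are given above, had changes of 0.80 ± 0.18 and -0.35 ± 0.16, and a difference of 1.15 ± 0.24 (adjusted p = 0.00788). Top2a, the DNA topoisomerase of dividing cells, stood at 84.5, 72.5 and 82.9 CPM in the PDS controls, 105, 104 and 116 CPM with PDS, 644, 668 and 640.3 CPM in the Braco-19 controls, and 524, 503 and 441 CPM with Braco-19. PDS libraries lay above and Braco-19 libraries below their controls, at 0.44 ± 0.12 and -0.41 ± 0.11 (adjusted p = 0.117), with a difference of 0.85 ± 0.16 (adjusted p = 0.00343). Nusap1, a spindle microtubule protein, was at 39.96, 31.3 and 39.9 CPM in the PDS controls, 61.5, 61 and 67.2 CPM with PDS, 109.5, 102 and 106 CPM in the Braco-19 controls, and 85.3, 80.9 and 69.6 CPM with Braco-19. It had the largest difference of the list, 1.20 ± 0.14 (adjusted p = 3.12e-05). Cdc25b, the phosphatase that activates CDK1, and Ube2c, the ubiquitin-conjugating enzyme of the anaphase-promoting complex, had 0.81 ± 0.11 and 0.78 ± 0.10, both with PDS libraries above and Braco-19 libraries below their controls.

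Promoters of mitosis genes are known for the cell-cycle homology region TTTGAA, bound by the DREAM complex. Of 41 mitosis genes matched to RefSeq, 27 (65.9%) held TTTGAA on either strand within the 300 bases, against 6140 of all 33469 promoters (18.3%). Top2a is printed because it is a list member with values above, with the match, on the other strand, in capitals, in the 250 upstream bases at chr10:84473094-84473343 (GRCr8, minus strand).
Top2a: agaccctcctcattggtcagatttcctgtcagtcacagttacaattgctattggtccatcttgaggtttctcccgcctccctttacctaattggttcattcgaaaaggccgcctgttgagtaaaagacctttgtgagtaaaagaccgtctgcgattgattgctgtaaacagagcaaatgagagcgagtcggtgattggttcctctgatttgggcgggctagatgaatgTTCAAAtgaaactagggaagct
Among the 9919 tested genes with a promoter in the table, 69.9% of those tested, 1142 (11.5%) held TTTGAA.

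Fewer members were called for DNA replication and recombination. Of 54 replication genes 17 were called above 0 and 0 below, and PDS raised 10, with medians of 0.199 under PDS, -0.102 under Braco-19 and 0.315 for the difference. Braco-19 lowered 16 of them and raised 0 at an unadjusted p under 0.05, and 0 by the adjusted test. Mcm4, a subunit of the replicative helicase, stood at 78.6, 66.2 and 77.9 CPM in the PDS controls, 90.9, 96.5 and 103 CPM with PDS, 149, 156 and 159.8 CPM in the Braco-19 controls, and 136, 124 and 128 CPM with Braco-19, and its difference was 0.65 ± 0.12 (adjusted p = 0.00275). Tyms, the thymidylate synthase, and Rpa2, a single-strand DNA binding protein, had differences of 0.63 ± 0.13 and 0.50 ± 0.10, with overlap of Braco-19 libraries and controls in both. The replication count fell to 11 without PDS control replicate 1 or Braco-19 replicate 2 and to 10 without control replicate 3.

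Of 39 genes of recombination, the Fanconi pathway and damage checkpoints, 13 were called above 0 and 0 below, and PDS raised 6, with medians of 0.278, -0.138 and 0.483 in the same order. At an unadjusted p under 0.05 there were 21 above and 2 below, against 4511 of all 14184 tested genes in either direction. The fit on the 12 libraries alone called 21 and 2. Brca1, a recombination mediator, was at 7.92, 6.66 and 8.27 CPM in the PDS controls, 10.8, 12.3 and 11.8 CPM with PDS, 49.3, 46.3 and 49 CPM in the Braco-19 controls, and 40.8, 37.9 and 38.9 CPM with Braco-19. Its changes were 0.61 ± 0.15 (adjusted p = 0.0151) and -0.30 ± 0.13 (adjusted p = 0.235), a difference of 0.91 ± 0.20 (adjusted p = 0.00714). Blm, a helicase that unwinds quadruplexes, had a difference of 0.59 ± 0.15 without a call under either compound, and Fanci, a Fanconi clamp subunit, of 0.49 ± 0.13. Blm lost its call without PDS replicate 2 or Braco-19 replicate 2, and Fanci without PDS replicate 3 or Braco-19 replicate 2 or 3. The recombination count depended on single libraries: it was 11 without PDS control replicate 1, 13 without Braco-19 replicate 1, and 2 to 8 without each of the other 10, lowest without Braco-19 replicate 2. The median control level of this list was lower in the PDS experiment by 1.12 on the log2 scale, and its part was not tested.

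**Figure D4:**
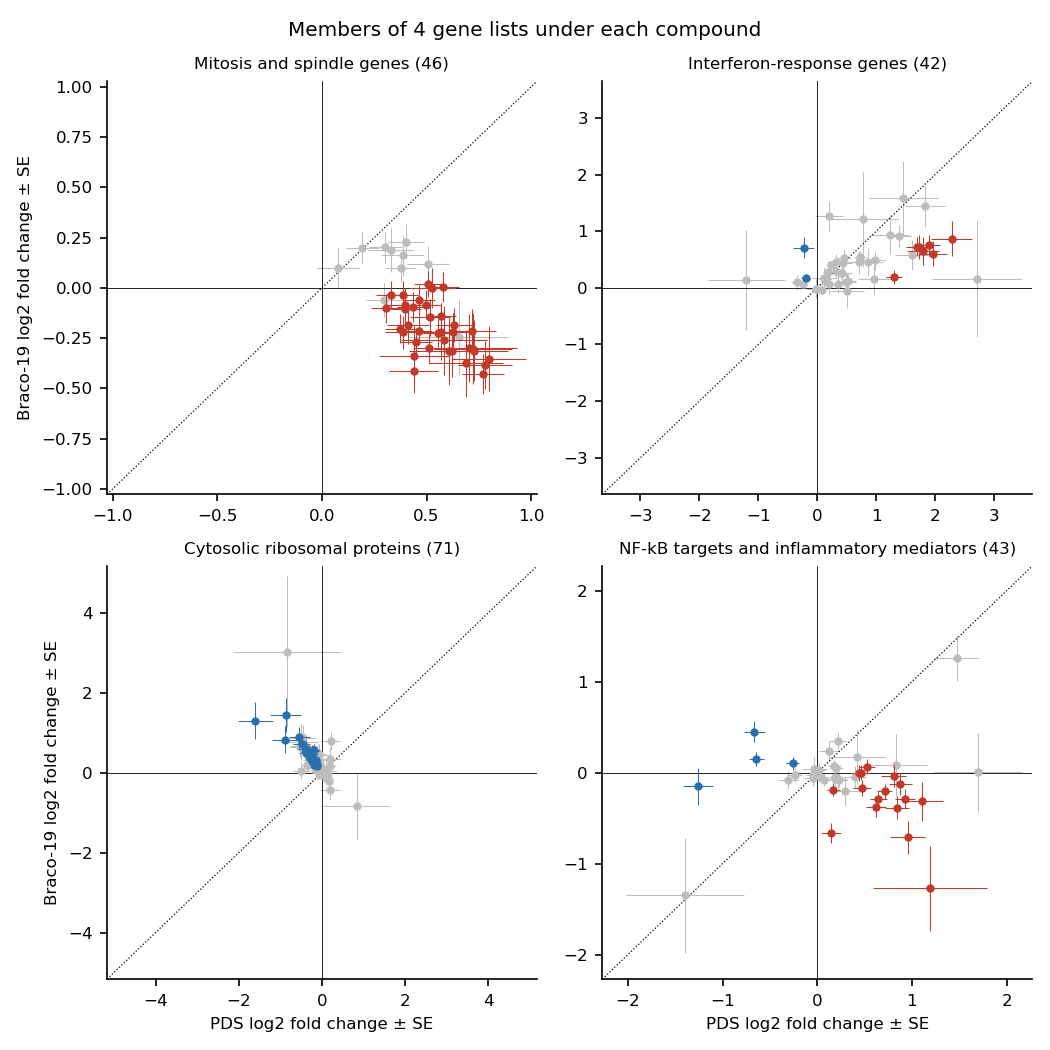
Log2 change of the tested members of 4 gene lists under PDS (x axis) and Braco-19 (y axis), with bars for the standard error and a dotted line at equal change; panels have their own scales. Red members have a difference above 0 and blue members below 0, grey members none that was called: the 36 called mitosis genes lie to the lower right, the 27 called ribosomal protein genes to the upper left, and most interferon-response genes lie to the upper right.

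Inflammatory genes rose under PDS in more members than under Braco-19, as tested genes did as a whole. Of 43 NF-kB targets and inflammatory mediators, 16 were called above 0 and 4 below, after 16 higher and 4 lower under PDS and 1 and 1 under Braco-19, with medians of 0.217, -0.0505 and 0.282. Over all tested genes 5.13% were higher and 2.96% lower under PDS, and 0.169% and 0.106% under Braco-19. The difference was above 0 in 7.28% of them and below 0 in 6.75%. Ccl2, a monocyte chemokine, stood at 1243, 1054 and 1330 CPM in the PDS controls, 1925, 1806 and 1942 CPM with PDS, 1797, 1600 and 1632 CPM in the Braco-19 controls, and 1399, 1313 and 1395 CPM with Braco-19. The PDS libraries were above and the Braco-19 libraries below their controls, with changes of 0.65 ± 0.09 and -0.29 ± 0.09 (adjusted p = 0.131) and a difference of 0.94 ± 0.12 (adjusted p = 8.85e-05). Cxcl16, a membrane-bound chemokine, had the same arrangement and a difference of 0.92 ± 0.11. Il11, a cytokine of the interleukin-6 family, was at 44.4, 42.3 and 48.1 CPM in the PDS controls, 94.8, 77.7 and 83.5 CPM with PDS, 101, 79.8 and 98.3 CPM in the Braco-19 controls, and 75.2, 67.8 and 86.5 CPM with Braco-19, with a difference of 1.21 ± 0.15 (adjusted p = 5.74e-05). Counts of this list ran from 12 to 17 above 0 when single libraries were left out.

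Of 7 tested genes of the plasminogen system, which activates a protease of the pericellular matrix, 4 were called above 0 and 0 below, among them the activators Plau and Plat described above.

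Interferon-response genes had estimates above 0 under both compounds in most members. Of 42 tested genes, 34 had estimates above 0 under both compounds and 7 had opposite signs. PDS raised 20 and Braco-19 raised 3 (Irf7, Stat2 and Uba7), 0 fell, and the medians were 0.499 and 0.423. At an unadjusted p under 0.05 PDS raised 28 and lowered 3, and Braco-19 raised 24 and lowered 0. The fit on the 12 libraries alone found 20 raised by PDS and 17 by Braco-19, with 3 lowered by PDS. The difference was called above 0 in 7 and below 0 in 2, with a median of 0.171. Cxcl10, a chemokine induced by interferon, was at 35.1, 39.6 and 58.3 CPM in the PDS controls, 177, 162 and 182 CPM with PDS, 145, 198 and 194 CPM in the Braco-19 controls, and 251, 313 and 251 CPM with Braco-19. All treated libraries were above their controls in both experiments, and the PDS change of 1.97 ± 0.23 exceeded the Braco-19 change of 0.60 ± 0.22 (adjusted p = 0.189) by 1.37 ± 0.32 (adjusted p = 0.0158). Usp18, the protease that removes ISG15, stood at 4.78, 4.71 and 5.81 CPM in the PDS controls, 15.5, 19.7 and 21.8 CPM with PDS, 4.85, 4.45 and 4.55 CPM in the Braco-19 controls, and 6.39, 8.89 and 8.04 CPM with Braco-19, a difference of 1.15 ± 0.26 (adjusted p = 0.00805). Cmpk2, a mitochondrial nucleotide kinase induced by interferon, had 1.11 ± 0.19, with Braco-19 libraries overlapping their controls. The count above 0 was 3 or 4 without PDS replicate 3, PDS control replicate 1 or 2, Braco-19 replicate 3, or control replicate 1 or 2. That below 0 was 5 without PDS control replicate 1 and 0 or 1 without PDS replicate 2 or 3, PDS control replicate 2 or 3, Braco-19 replicate 2, or control replicate 1 or 3.

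Guanylate-binding and immunity-related GTPases had estimates above 0 under both compounds in all 6 tested genes. PDS raised 3 and Braco-19 raised 1, Gbp2, or 2 in the fit on the 12 libraries alone. The difference was called above 0 in 2, Gbp4 and Gbp5. Gbp5 stood at 13.6, 13.6 and 17.4 CPM in the PDS controls, 36.5, 30.9 and 37.9 CPM with PDS, 33, 34.5 and 36.2 CPM in the Braco-19 controls, and 45.3, 49.6 and 47.8 CPM with Braco-19, with a difference of 0.78 ± 0.19 (adjusted p = 0.0107). Gbp4 was at 1.15, 1.18 and 1.26 CPM in the PDS controls, 4.15, 3.61 and 3.99 CPM with PDS, 2.05, 2.97 and 2.25 CPM in the Braco-19 controls, and 2.63, 1.94 and 2.90 CPM with Braco-19, a low level, with a difference of 1.67 ± 0.36. Of 13 tested genes of antigen processing, 2 were called above 0 (1 without PDS replicate 3, PDS control replicate 2, Braco-19 replicate 2 or 3, or control replicate 1) and 3 below. B2m, the invariant chain of class I molecules, was at 343, 303 and 371 CPM in the PDS controls, 399, 424 and 458 CPM with PDS, 290.2, 273 and 286 CPM in the Braco-19 controls, and 265, 234 and 232 CPM with Braco-19, and differed by 0.55 ± 0.12 (adjusted p = 0.00603). The immunoproteasome subunits Psmb8 and Psmb10 went the other way. Psmb8 stood at 20.5, 19.6 and 16.8 CPM in the PDS controls, 16.5, 15.6 and 13.8 CPM with PDS, 4.54, 5.93 and 4.99 CPM in the Braco-19 controls, and 6.67, 8.19 and 8.82 CPM with Braco-19, with PDS libraries below and Braco-19 libraries above their controls but neither change called. The differences were -0.92 ± 0.21 for Psmb8 (adjusted p = 0.00767) and -0.79 ± 0.18 for Psmb10.

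Called differences among genes of the cytosolic ribosome all lay below 0. Of 71 tested ribosomal protein genes, 27 were called below 0 and 0 above, while PDS lowered 1 and Braco-19 changed 0. At an unadjusted p under 0.05 PDS lowered 17 and Braco-19 raised 39 and lowered 1, and the fit on the 12 libraries alone called 15 lower under PDS and 21 higher under Braco-19. The medians were -0.158 under PDS, 0.281 under Braco-19 and -0.452 for the difference, and 57 members had estimates below 0 under PDS and above 0 under Braco-19. Rpl7, a large-subunit protein, stood at 1309, 1263 and 1416 CPM in the PDS controls, 1201, 1137 and 1102 CPM with PDS, 569, 549.8 and 532 CPM in the Braco-19 controls, and 639, 726 and 657 CPM with Braco-19. PDS libraries were below and Braco-19 libraries above their controls, with changes of -0.21 ± 0.07 (adjusted p = 0.075) and 0.29 ± 0.07 (adjusted p = 0.0982) and a difference of -0.51 ± 0.10 (adjusted p = 0.00411). Rpl4 had -0.39 ± 0.09. These transcripts are short, and after correction for the length trend the median difference was -0.246, 21 were called below 0 and 1 above, and with the 12 libraries alone 42 below and 1 above. The count was 6 to 16 without PDS replicate 2 or 3, PDS control replicate 2 or 3, Braco-19 replicate 2 or 3, or any control replicate, and ribosomal protein genes have many near-identical copies that could have shared their reads.

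Of 51 nuclear genes of oxidative phosphorylation, 13 were called below 0 and 0 above, with medians of -0.144, 0.20 and -0.362. At an unadjusted p under 0.05 there were 30 below and 0 above. After the length correction 7 were called and the median difference was -0.202, with the 12 libraries alone 28, and 23 without Braco-19 replicate 1. It was 4 to 8 without PDS replicate 3, PDS control replicate 3, Braco-19 replicate 2 or 3, or control replicate 2 or 3. Ndufv1, the flavoprotein of complex I, stood at 115, 133 and 142 CPM in the PDS controls, 99.3, 104 and 104 CPM with PDS, 62.7, 65.2 and 63.7 CPM in the Braco-19 controls, and 80.9, 91.2 and 82.5 CPM with Braco-19, a difference of -0.75 ± 0.14 (adjusted p = 0.0026). The complex I subunits Ndufb10 and Ndufa2 had -0.82 ± 0.19 and -0.65 ± 0.14. Of 13 mitochondrial mRNAs, 3 were called above 0 and 0 below, with medians of 0.110, -0.412 and 0.547. Mt-nd1, a complex I subunit, was at 1145, 1035 and 1138 CPM in the PDS controls, 1237, 1474 and 1661 CPM with PDS, 2073, 1675 and 1768 CPM in the Braco-19 controls, and 1552, 1274 and 1249 CPM with Braco-19, and differed by 0.84 ± 0.22 (adjusted p = 0.0226). Mt-co1 had 0.59 ± 0.16 and Mt-cyb 0.47 ± 0.15. None of the 3 was called without PDS replicate 3, PDS control replicate 2, Braco-19 replicate 2 or 3, or control replicate 1. Of 32 constitutive proteasome genes, 1 was called above 0 and 4 below, among them the ATPase Psmc5 at -0.43 ± 0.10, close to the background. The latter count was 1 or 2 without PDS replicate 2 or 3, PDS control replicate 2 or 3, Braco-19 replicate 2 or 3, or control replicate 2 or 3. The starting levels differed here too: ribosomal, nuclear oxidative and mitochondrial medians were 1.43, 1.35 and -1.04 in PDS controls minus Braco-19 controls, and their part was not tested.

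**Figure D5:**
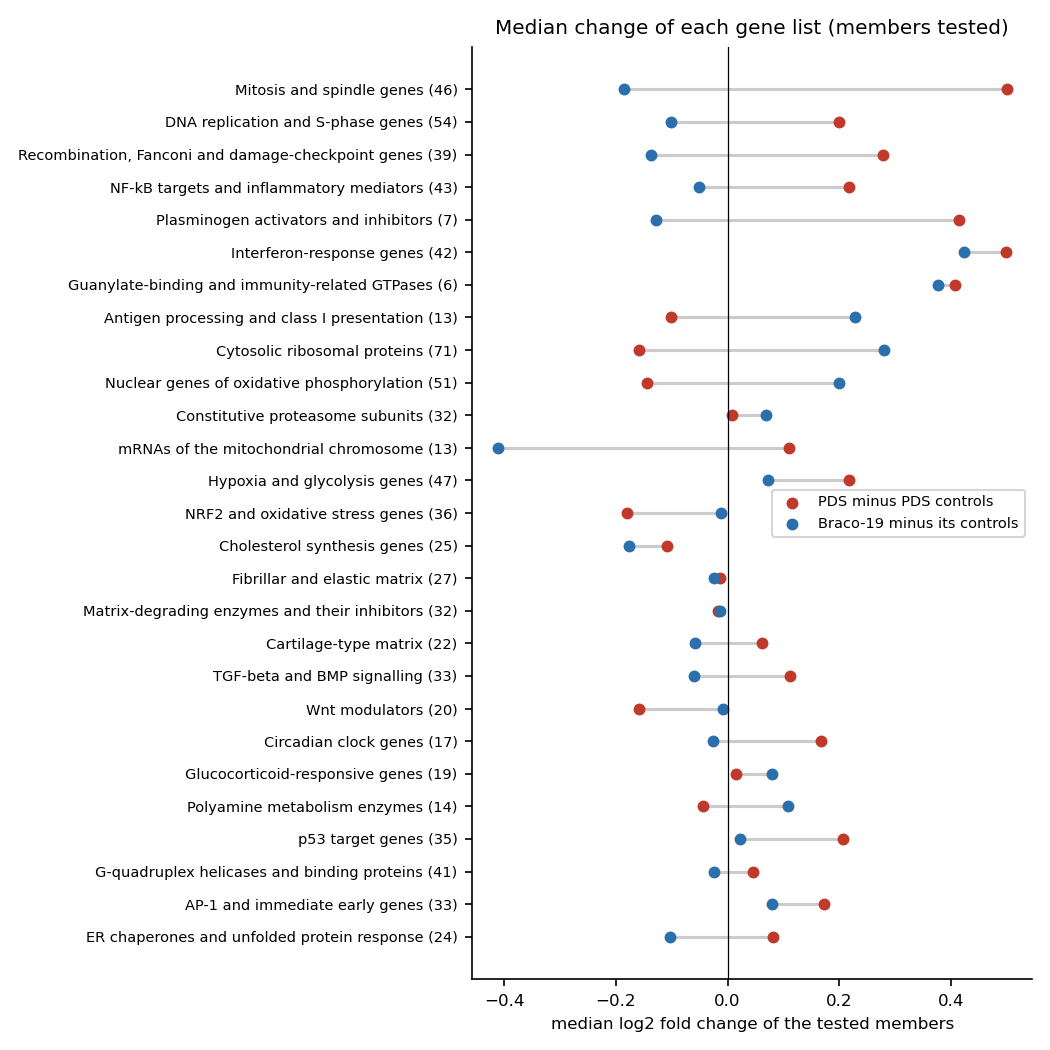
Median log2 change of the tested members of 27 gene lists under PDS (red) and Braco-19 (blue), each against its own controls, with the number of members tested in brackets. The points lie on opposite sides of 0 for mitosis (0.50 and -0.185) and ribosomal proteins (-0.158 and 0.281), and on the same side for interferon-response genes (0.499 and 0.423).

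Of 47 tested genes of hypoxia and glycolysis PDS raised 19 and lowered 1, Braco-19 raised 1 (11 with the 12 libraries alone), and the difference was called above 0 in 11 and below 0 in 6. Over all tested genes PDS raised 5.13% and lowered 2.96%, and Braco-19 raised 0.169%. The difference was above 0 in 7.28% of them and below 0 in 6.75%. Bnip3, a mitophagy receptor, stood at 287, 252 and 294 CPM in the PDS controls, 447, 442 and 459 CPM with PDS, 92, 82 and 86.1 CPM in the Braco-19 controls, and 79.6, 88.4 and 72.3 CPM with Braco-19. PDS raised it by 0.69 ± 0.08, Braco-19 libraries overlapped their controls, and the difference was 0.81 ± 0.11 (adjusted p = 0.000194). Egln3, an oxygen-sensing prolyl hydroxylase, and Epas1, the factor HIF-2 alpha, had 0.86 ± 0.13 and 0.93 ± 0.13. Vegfa, the vascular growth factor, had 0.52 ± 0.13 (adjusted p = 0.0127). The 6 genes below 0 numbered 2 or 3 without PDS replicate 2 or 3, PDS control replicate 2, Braco-19 replicate 2 or 3, or control replicate 1 or 3.

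NRF2 directs genes of glutathione and quinone metabolism. Of 36 tested NRF2 and oxidative stress genes PDS lowered 11 and Braco-19 lowered 2, Nqo1 and Gclc, and the difference was called below 0 in 11 and above 0 in 4. Among all tested genes PDS lowered 2.96% and Braco-19 0.106%, and the difference was below 0 in 6.75% and above 0 in 7.28%. Hmox1, heme oxygenase, stood at 371, 383 and 353 CPM in the PDS controls, 274, 287 and 263 CPM with PDS, 81.2, 99.96 and 98 CPM in the Braco-19 controls, and 98.2, 102 and 96.6 CPM with Braco-19, and its difference was -0.52 ± 0.10 (adjusted p = 0.00373). Mgst1, a membrane glutathione transferase, had -0.99 ± 0.18, and the aldehyde oxidase Aox1 -0.82 ± 0.16. Gclc, the catalytic subunit of glutathione synthesis, differed in the other direction, at 40.2, 39.9 and 41.6 CPM in the PDS controls, 44.3, 48.3 and 51.6 CPM with PDS, 91.5, 83.7 and 99.2 CPM in the Braco-19 controls, and 68, 66.7 and 65.8 CPM with Braco-19. It fell under Braco-19 (-0.45 ± 0.09, adjusted p = 0.0343), was not called under PDS (0.24 ± 0.09), and differed by 0.70 ± 0.13 (adjusted p = 0.00236). The 11 genes below 0 became 5 or 6 without PDS replicate 2 or 3, PDS control replicate 2 or 3, Braco-19 replicate 2 or 3, or control replicate 2 or 3. The 4 genes above 0 became 1 or 2 without any library other than PDS control replicate 3 or Braco-19 replicate 1.

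Of 25 tested genes of cholesterol synthesis PDS lowered 6 and Braco-19 lowered 2, Cyp51 and Sc5d (6 with the 12 libraries alone), and the difference was called above 0 in 3 and below 0 in 3. The shares of all tested genes were 2.96% lowered by PDS, 0.106% lowered by Braco-19, and 7.28% above and 6.75% below 0. Sc5d, a late sterol desaturase, stood at 94.5, 90.1 and 102 CPM in the PDS controls, 92.4, 98 and 106 CPM with PDS, 104, 109 and 105 CPM in the Braco-19 controls, and 79.9, 78 and 75 CPM with Braco-19. It fell under Braco-19 (-0.45 ± 0.08, adjusted p = 0.0169) and had overlapping libraries under PDS (0.05 ± 0.08), a difference of 0.50 ± 0.11 (adjusted p = 0.00763). Lss, the lanosterol synthase, fell under PDS (-0.44 ± 0.07) and overlapped under Braco-19 (-0.05 ± 0.07), with a difference of -0.39 ± 0.10 (adjusted p = 0.0158). Hsd17b7, a sterol reductase, had 0.50 ± 0.14, a call lost in 11 of 23 alternatives. The count above 0 was 1 without PDS replicate 1 or 3, PDS control replicate 2, Braco-19 replicate 2 or 3, or control replicate 1 or 2. Below 0 it was 1 without PDS replicate 2 or 3, PDS control replicate 2 or 3, Braco-19 replicate 2, or control replicate 3.

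Calls among disc matrix genes were few. They lay below the shares over all genes in the cartilage-type list and above them in the fibrillar list, on small counts. Of 22 cartilage-type matrix genes 1 was called below 0, Col2a1, the main collagen of the nucleus pulposus, and 0 above. At an unadjusted p under 0.05 there were 4 and 5, against 4511 of all 14184 tested genes in either direction. Col2a1 stood at 17.3, 18.4 and 16.3 CPM in the PDS controls, 9.13, 10.9 and 9.34 CPM with PDS, 15.9, 22.3 and 22.6 CPM in the Braco-19 controls, and 16.9, 24.4 and 17.5 CPM with Braco-19, a fall under PDS (-0.82 ± 0.16) with overlap under Braco-19, and a difference of -0.78 ± 0.22 (adjusted p = 0.0243). It lost its call without PDS replicate 1 or 3, PDS control replicate 2, Braco-19 replicate 2 or control replicate 1. For Sox9, the cartilage transcription factor, the difference was 0.00 ± 0.19 with an interval of -0.39 to 0.40 (adjusted p = 0.992). Acan, near the counting limit, had 0.98 ± 0.83 with an interval of -0.75 to 2.71. Of 27 fibrillar and elastic matrix genes 4 were called above 0 and 3 below, against 7.28% and 6.75% of all tested genes, and with the 12 libraries alone 5 and 6. The lysyl oxidase Loxl2, which cross-links collagen, was at 133, 130 and 124 CPM in the PDS controls, 212, 226 and 211 CPM with PDS, 180.2, 213 and 202 CPM in the Braco-19 controls, and 199, 209 and 191 CPM with Braco-19, and differed by 0.74 ± 0.10 (adjusted p = 0.000101). Thbs2, a matricellular thrombospondin, and Col14a1, a fibril-associated collagen, had -0.51 ± 0.10 and -0.76 ± 0.14.

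Of 32 matrix-degrading enzymes and inhibitors, 4 were called above 0 and 6 below, against 7.28% and 6.75% of all tested genes. The stromelysin Mmp3 stood at 2554, 2696 and 2702 CPM in the PDS controls, 3428, 3319 and 3303 CPM with PDS, 5239, 4442 and 4692 CPM in the Braco-19 controls, and 4542, 3568 and 4003 CPM with Braco-19, and differed by 0.58 ± 0.11 (adjusted p = 0.00351). The collagenase Mmp13 was at 477, 422 and 494 CPM in the PDS controls, 744, 744 and 848 CPM with PDS, 1599, 971 and 1050 CPM in the Braco-19 controls, and 1088, 620 and 803 CPM with Braco-19, with no call under either compound, and differed by 1.27 ± 0.31 (adjusted p = 0.0201), a call lost without PDS replicate 3 or PDS control replicate 2. The aggrecanase Adamts5 fell under PDS and overlapped its controls under Braco-19, at 85.9, 84 and 79.7 CPM in the PDS controls, 45.9, 51 and 49.1 CPM with PDS, 127, 141 and 128 CPM in the Braco-19 controls, and 139, 126 and 133 CPM with Braco-19, a difference of -0.78 ± 0.13 (adjusted p = 0.000812). Adamts7, which cleaves cartilage oligomeric matrix protein, had 0.79 ± 0.14, so that members of a protease family differed in both directions.

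Of 33 tested genes of TGF-beta and BMP signalling PDS raised 11 and lowered 4, Braco-19 changed 0 (2 higher and 7 lower at an unadjusted p under 0.05), and the difference was called above 0 in 9 and below 0 in 4. Among all tested genes PDS raised 5.13% and lowered 2.96%, and the difference was above 0 in 7.28% and below 0 in 6.75%. Bmp2, the bone morphogenetic ligand named above, stood at 12.8, 11.7 and 12 CPM in the PDS controls, 34, 32.2 and 33.3 CPM with PDS, 67.1, 46 and 50.3 CPM in the Braco-19 controls, and 52.8, 40.5 and 56.9 CPM with Braco-19. Pmepa1, a TGF-beta target that restrains SMAD signalling, was at 97, 92 and 86 CPM in the PDS controls, 196, 190 and 205 CPM with PDS, 255, 237 and 242 CPM in the Braco-19 controls, and 195, 214 and 213 CPM with Braco-19. PDS raised it by 1.10 ± 0.08, and the difference was 1.34 ± 0.12 (adjusted p = 1.15e-06). Ccn3, a matricellular protein of the CCN family, was at 798, 768 and 798 CPM in the PDS controls, 385, 400.1 and 398 CPM with PDS, 351, 320.5 and 312 CPM in the Braco-19 controls, and 327, 333 and 316 CPM with Braco-19, and its PDS fall of 1.00 on the log2 scale gave a difference of -0.99 ± 0.10 (adjusted p = 4.77e-06). The 4 genes below 0 became 2 without PDS replicate 3 or Braco-19 replicate 2. In bone markers, of which 3 were tested, Spp1 (osteopontin) was called above 0, at 3629, 3170 and 3898 CPM in the PDS controls, 5343, 5070 and 5745 CPM with PDS, 7917, 5755 and 6215 CPM in the Braco-19 controls, and 5837, 4546 and 5208 CPM with Braco-19, a difference of 0.95 ± 0.18.

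Among 20 Wnt modulators 1 was called above 0 and 4 below, against 7.28% and 6.75% of all tested genes. The R-spondin receptor Lgr5 stood at 24.7, 21.2 and 21.9 CPM in the PDS controls, 10.1, 9.56 and 11.7 CPM with PDS, 31.1, 28.5 and 27.6 CPM in the Braco-19 controls, and 25, 24.7 and 20.1 CPM with Braco-19, below its controls in all libraries of both compounds. It fell by 1.11 on the log2 scale under PDS, had -0.32 ± 0.13 under Braco-19 (adjusted p = 0.215), and differed by -0.79 ± 0.19 (adjusted p = 0.0132). Its ligand Rspo1 had a difference of -1.07 ± 0.18 (adjusted p = 0.0011). The 4 genes below 0 became 2 without PDS replicate 1 or 3, PDS control replicate 1 or 2, Braco-19 replicate 3 or control replicate 1.

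Clock and glucocorticoid-responsive genes included some that Braco-19 raised. Of 17 tested clock genes 3 were called above 0 and 5 below, against 7.28% and 6.75% of all tested genes. Braco-19 raised 0.169% of all tested genes and PDS lowered 2.96%. Per1, a core clock repressor also induced by glucocorticoids, stood at 10.7, 12.6 and 10.4 CPM in the PDS controls, 10.7, 12.3 and 11.1 CPM with PDS, 19.2, 20.4 and 18.6 CPM in the Braco-19 controls, and 31, 30.6 and 32.8 CPM with Braco-19. It rose under Braco-19 (0.70 ± 0.11, adjusted p = 0.00686) and overlapped its controls under PDS (0.02 ± 0.11), a difference of -0.68 ± 0.15 (adjusted p = 0.00827). Npas2, an activator of the clock, and Bhlhe40, a repressor, had 1.04 ± 0.18 and 0.57 ± 0.11. Of 19 glucocorticoid-responsive genes 1 was called above 0 and 5 below, the latter including Klf15, Angptl4 and Per1, and Braco-19 raised 3 of the 19 and PDS lowered 2. The clock genes above 0 became 5 without Braco-19 replicate 1, and those below 0 became 1 to 3 without any library other than PDS control replicate 1 and control replicate 2. The glucocorticoid gene above 0 was lost without any library other than PDS control replicate 1 and Braco-19 replicate 1.

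Polyamine enzymes differed in both directions. Of 14 tested genes 3 were called above 0, among them Amd1, and 4 below, against 7.28% and 6.75% of all tested genes. Arg1, the arginase that supplies ornithine, stood at 22.1, 24.3 and 24.7 CPM in the PDS controls, 33.7, 34 and 35.2 CPM with PDS, 17.9, 16.2 and 16 CPM in the Braco-19 controls, and 16.4, 14.9 and 14.2 CPM with Braco-19, a difference of 0.67 ± 0.12 (adjusted p = 0.0022). Sat2, an acetyltransferase of the spermidine and spermine family, was at 13.8, 17.5 and 14.8 CPM in the PDS controls, 11.2, 10.5 and 9.34 CPM with PDS, 5.47, 5.70 and 5.67 CPM in the Braco-19 controls, and 7.34, 6.68 and 8.10 CPM with Braco-19, with a difference of -0.97 ± 0.19 (adjusted p = 0.00298). The 4 genes below 0 became 2 without PDS replicate 1 or 3, PDS control replicate 2, or control replicate 1 or 2.

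Among 35 tested p53 targets 7 were called above 0 and 2 below, against 7.28% and 6.75% of all tested genes. Cdkn1a, the CDK inhibitor p21, stood at 310, 319 and 328 CPM in the PDS controls, 405, 409 and 393 CPM with PDS, 245, 246 and 257 CPM in the Braco-19 controls, and 270.4, 295 and 299 CPM with Braco-19. All treated libraries were above their controls in both experiments. The changes were 0.34 ± 0.07 (adjusted p = 0.00535) and 0.21 ± 0.07 (adjusted p = 0.158), and the difference of 0.13 ± 0.10, with an interval of -0.08 to 0.34, was not called (adjusted p = 0.405). Mdm2, the ubiquitin ligase of p53, was at 151, 141 and 151 CPM in the PDS controls, 216, 221 and 226 CPM with PDS, 267, 243 and 238 CPM in the Braco-19 controls, and 248, 218 and 220 CPM with Braco-19, and differed by 0.71 ± 0.12 (adjusted p = 0.000872). Pmaip1, the apoptosis gene Noxa, and Ckap2, a spindle protein also in this list, had 0.68 ± 0.13 and 0.88 ± 0.12. The 2 genes below 0 became 1 without PDS replicate 2 or 3, PDS control replicate 2 or 3, Braco-19 replicate 2 or 3, or control replicate 2 or 3, and 4 without Braco-19 replicate 1.

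Of 41 tested helicases and binding proteins of G-quadruplexes PDS raised 2, Braco-19 changed 0 (3 higher and 6 lower at an unadjusted p under 0.05), and the difference was called above 0 in 4 and below 0 in 3, near the background share, with medians of 0.0453, -0.0246 and 0.0922. The 4 above 0 were Blm and Top2a, described above, Brip1, a helicase of the Fanconi pathway (1.02 ± 0.24), and Cstf2, a polyadenylation factor (0.67 ± 0.14). Brip1 stood at 5.56, 4.01 and 4.79 CPM in the PDS controls, 7.23, 6.01 and 8.11 CPM with PDS, 30.2, 28.5 and 31.3 CPM in the Braco-19 controls, and 23.4, 21.6 and 20.7 CPM with Braco-19, with PDS libraries above and Braco-19 libraries below their controls but neither change called. The 3 below 0 became 0 or 1 without any library other than PDS control replicate 2, Braco-19 replicate 1 or control replicate 2. With the 12 libraries alone 9 and 5 were called. Of 19 tested genes with studied promoter quadruplexes 3 were called above 0 and 0 below. At an unadjusted p under 0.05 there were 5 and 0, against 4511 of all 14184 tested genes in either direction. Myc, the oncogene whose promoter quadruplex is the best studied, stood at 18.6, 18.9 and 18.8 CPM in the PDS controls, 22, 23.6 and 23.7 CPM with PDS, 30.8, 33.7 and 39.9 CPM in the Braco-19 controls, and 29.4, 29.7 and 31.9 CPM with Braco-19. Neither compound gave a call, at 0.30 ± 0.10 (adjusted p = 0.0614) and -0.20 ± 0.09 (adjusted p = 0.262), but the difference of 0.50 ± 0.13 passed (adjusted p = 0.0209). It was lost without PDS replicate 3, Braco-19 replicate 2 or control replicate 3. Ccnd1, cyclin D1, was at 782, 815 and 778 CPM in the PDS controls, 1247, 1233 and 1199 CPM with PDS, 902, 993 and 944 CPM in the Braco-19 controls, and 1054, 1020 and 1163 CPM with Braco-19, and rose under PDS by 0.63 ± 0.07, with a difference of 0.44 ± 0.09 (adjusted p = 0.00596). Vegfa, given above, was the third.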

How the data were processed

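RNA sequencing counts of 18 libraries of cultured rat nucleus pulposus cells were used, of which the 12 of the PDS and Braco-19 experiments enter the comparison. The deposited table holds raw counts of reads per gene for 33898 genes, with gene lengths as the authors gave them. Per the submitters' processing notes, CASAVA, HISAT2 and featureCounts 1.5.0-p3 were used. The genome build, annotation and strand setting were not given in the sources used here. Total counts per library were 15715121 to 18369443.

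Counts were analysed with edgeR 4.0.16 in R 4.3.3 (TMM factors, filterByExpr by group, robust quasi-likelihood fit, two-sided, Benjamini-Hochberg threshold 0.05). All 18 libraries entered 1 fit with a mean per group and 12 residual degrees of freedom, and 14184 genes were tested. The procedure was tested on simulated data. Standard errors are the absolute log2 value divided by the square root of F, and intervals are 95%.

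Alternatives were other scalings and filters, DESeq2 1.42.0, limma-voom (limma 3.58.1) with quality weights, a minimum log2 difference of 0.5, the 12 libraries alone, a replicate block, a correction for each library's trend with gene length, omission of each library, and PDS against Braco-19 libraries directly.

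The members and the 50 gene lists were chosen with earlier results of these data known. Lists held 1269 symbols, of which 1227 matched by symbol and 7 by RefSeq name. Named genes are the 12 largest differences in each direction (mean log2 CPM of at least 2), the genes called under both compounds, and up to 3 per list by the p of the difference. A fixed set was also named: Acan, Col2a1, Sox9, Mmp3, Mmp13, Adamts5, Il6, Ccl2, Cdkn1a, Mki67, Myc and Hmox1. Genes named outside this rule, to spell out a small count or check the labelled cell type, were chosen after their values were seen. Promoters came from RefSeq (GRCr8). Some genes are not reported here.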

Additional observations from a re-analysis of the deposited data

Results flagged for a closer look

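The 9 genes called in opposite directions had differences called by edgeR's quasi-likelihood test with Benjamini-Hochberg adjustment. They were chosen by opposite calls under the compounds, which nearly implies a called difference, so the values describe them and are no separate support. Chsy3, the chondroitin synthase, had the largest difference, 1.62 on the log2 scale (adjusted p = 2.96e-07). Plat differed by 1.08 (adjusted p = 5.74e-05), with the treated libraries on opposite sides of their own controls in 6 of 6 cases. Stil differed by 0.95 (adjusted p = 0.00024) and Amd1 by 0.95 (adjusted p = 6.72e-05). In the reverse arrangement Klf15 differed by -1.19 (adjusted p = 3.12e-05) and Ptx3 by -1.06 (adjusted p = 1.69e-05). Gas6 differed by -0.97 (adjusted p = 7e-06), Angptl4 by -0.94 (adjusted p = 9.06e-06) and Irf2bpl by -0.90 (adjusted p = 0.000327). Control levels of all 9 also differed between the experiments. Chsy3, Plat, Amd1 and Stil were lower in the PDS controls than in the Braco-19 controls, and Gas6, Angptl4, Ptx3, Irf2bpl and Klf15 were higher. In all 9 the gap between the controls was thus opposite in sign to the difference of the changes. The part of these control levels in the differences was not tested. Groups of 3 libraries were not searched for single deviating libraries.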

How the results depend on the processing

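The direct comparison of PDS with Braco-19 libraries, which pools both control groups and so leaves the difference between the experiments in place, called 4600 genes higher and 4896 lower, against 1033 and 957 for the difference of the changes. It reversed the sign for 67 of the 119 genes followed across the alternatives, counting a sign change where either value passed the test. Under the other alternatives no called gene changed sign, and the differences of Gbp2, Sox9 and Scd, near 0 and not called, ranged from -0.136 to 0.0098, -0.0702 to 0.151 and -0.126 to 0.0741. Log2 values of PDS minus Braco-19 below 0, where the difference of the changes was above 0, were as follows. They were Acan -2.96, Adamts7 -1.60, Amd1 -0.0615, Atf6 -0.64, Blm -1.16, Bmp2 -0.59, Brca1 -1.76, Brip1 -1.62, Btg2 -0.02, Cdc25b -0.98, Ckap2 -0.77 and Cstf2 -0.55. Below 0 also were Cxcl10 -0.65, Edem1 -0.15, Epas1 -0.51, Fanci -0.32, Fosl1 -0.0554, Gas7 -0.30, Gbp5 -0.44, Gclc -0.48, Hsd17b7 -0.24, Mcm4 -0.41, Mdm2 -0.048 and Mki67 -3.43. The others below 0 were Mmp13 -0.10, Mmp3 -0.27, Myc -0.39, Npas2 -1.43, Nusap1 -0.31, Pmaip1 -0.22, Pmepa1 -0.0731, Ptgs2 -1.01, Rsad2 -0.41, Sox9 -1.15, Stil -1.02 and Susd5 -1.55. They were Top2a -2.17, Tyms -0.0841, Ube2c -0.20 and Vegfa -0.49. The reverse arrangement gave values above 0. They were Angptl4 2.0, Apol9a 0.46, Ccn3 0.28, Crip1 0.36, Flot1 0.97, Gas1 0.58, Gas6 0.13, Gbp2 0.59, Hmox1 1.47, Mgst1 0.72, Naprt 0.52 and Ndufa2 1.28. Above 0 also were Ndufb10 0.89, Ndufb6 0.68, Ndufv1 0.27, Psmb10 0.74, Psmb8 0.95, Psmc5 0.54, Ptx3 1.03, Ramp3 0.51, Rpl4 0.25, Rpl7 0.77, Rps19l2 0.92 and Rps20 0.65. The others above 0 were Rspo1 0.55, Sat2 0.49 and Tril 0.17.

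Differences called above 0 and below 0 numbered 1349 and 1299 with DESeq2 and 1971 and 1811 with limma-voom. They were 30 and 19 with a required log2 difference of at least 0.5, and 1512 and 1727 with the 12 libraries alone. Leaving out 1 library gave 493 (without PDS replicate 3) to 1135 above 0 and 403 (without PDS replicate 3) to 1218 below 0 (both maxima without Braco-19 replicate 1). Genes higher under PDS and lower under Braco-19 numbered 57 with DESeq2, 259 with limma-voom, 119 with the 12 libraries alone and 0 with the required difference, against 4. The reverse count of 5 became 8 with upper-quartile factors, 47, 236, 216 and 0 in the same order. Genes higher under both compounds, 6 here, numbered 14 with DESeq2, 59 with limma-voom, 27 with the 12 libraries alone and 0 with the required difference, and those lower under both, 3 here, 6, 24, 8 and 0. Without 1 library these 4 counts ran from 0 to 14, 0 to 15, 1 to 9 and 0 to 3. Of the 107 called among them, 27 kept direction and call under every alternative except the pooled controls, and 89 when the required difference and the replicate block are also set aside.

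Whether replicate numbers pair the libraries was not tested. Deviations of same-numbered libraries correlated at -0.036, 0.064 and 0.001 for PDS and 0.058, 0.072 and 0.009 for Braco-19. Differently numbered libraries correlated at -0.065 to 0.065 for PDS and -0.071 to 0.009 for Braco-19. PDS control replicate 1 correlated best with PDS replicate 3 (0.065). With the replicate block 384 differences were called above 0 and 277 below 0, with 0, 0, 1 and 0 in the 4 classes. With the block and the length correction together they were 581 and 481, with 1, 0, 1 and 1. The cause of these shifts was not tested. Depth limits genes of few counts. The filter removed many of these but kept some that are low in 1 experiment, such as Acan at 0.118 to 0.411 CPM in the PDS experiment.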

Other observations

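Of 24 tested genes of the endoplasmic reticulum stress response 0 were called under either compound (5 higher and 1 lower under PDS, 1 and 8 under Braco-19, at an unadjusted p under 0.05). For the difference 6 were called above 0 and 0 below (11 and 3 at an unadjusted p under 0.05, 8 and 1 with DESeq2), with medians of 0.0812 under PDS and -0.104 under Braco-19. The adjusted shares over all tested genes were 7.28% above and 6.75% below 0 by edgeR. DESeq2 called 1349 above and 1299 below of 14184, the background for its counts here and below. Dnajb9, a chaperone of the endoplasmic reticulum, stood at 33.4, 26.1 and 32.9 CPM in the PDS controls, 36.6, 40.6 and 46.6 CPM with PDS, 36.6, 29.8 and 32.2 CPM in the Braco-19 controls, and 27.7, 24.1 and 26.4 CPM with Braco-19. Every PDS library lay above and every Braco-19 library below its controls, and the difference was 0.76 ± 0.19 (adjusted p = 0.016). Atf6, a membrane-bound sensor of misfolded protein, and Edem1, which directs such protein to degradation, had 0.53 ± 0.12 and 0.36 ± 0.08 with the same arrangement of libraries. The count was 2 without PDS replicate 3 and 3 without Braco-19 replicate 3.

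Immediate early genes rose under PDS in 8 of 33 tested members and under Braco-19 in 0 (8 higher and 2 lower at an unadjusted p under 0.05), and the difference was called above 0 in 7 and below 0 in 2 (1 without PDS replicate 3, Braco-19 replicate 2 or 3, or control replicate 1 or 3). For this list and the next, the shares of all tested genes were 5.13% raised by PDS, 0.169% raised by Braco-19, and 7.28% above and 6.75% below 0. Fosl1, a subunit of the AP-1 factor, stood at 40.6, 41.3 and 38.2 CPM in the PDS controls, 61.5, 56.9 and 58.7 CPM with PDS, 63.6, 68.1 and 65 CPM in the Braco-19 controls, and 59.2, 60.9 and 63.9 CPM with Braco-19, and differed by 0.66 ± 0.10 (adjusted p = 0.000635). Ier3, a stress-induced survival protein, differed by 0.76 ± 0.11, and Btg2, an antiproliferative gene also counted among the p53 targets, by 0.59 ± 0.11. Of 15 tested genes of disc identity 3 were called above 0 and 1 below, or 4 and 3 with DESeq2, and 1 above without PDS replicate 3, PDS control replicate 2 or Braco-19 replicate 2. Cdh2, the cadherin of notochord-derived cells, stood at 24.2, 23.7 and 22.6 CPM in the PDS controls, 28, 32.3 and 32.8 CPM with PDS, 31.3, 28.9 and 29.9 CPM in the Braco-19 controls, and 27.2, 26.3 and 27.9 CPM with Braco-19, with a difference of 0.55 ± 0.15 (adjusted p = 0.0193) that lost its call without PDS replicate 3 or Braco-19 replicate 2. Ca3, a carbonic anhydrase, had 0.83 ± 0.22 (adjusted p = 0.0201), lost without PDS control replicate 2 or Braco-19 replicate 2. Of 18 tested telomere genes 1 was called above 0 and 2 below, near the 7.28% and 6.75% of all tested genes. The first was lost in 8 of 12 omissions of 1 library, and the 2 became 0 or 1 in all 12. PDS and Braco-19 changed 0 each (2 higher and 1 lower, and 2 and 2, at an unadjusted p under 0.05).

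In other lists, against 7.28% above and 6.75% below 0 over all tested genes, the difference was above 0 in 3 and below 0 in 0 of 33 amino acid response genes, in 3 and 0 of 23 heat shock genes, in 4 and 1 of 22 histone genes, and in 3 and 1 of 32 growth factor genes. It was above 0 in 2 and below 0 in 0 of 16 senescence genes, in 1 and 4 of 21 fatty acid genes, in 1 and 2 of 36 autophagy and lysosome genes, and in 0 and 1 of 14 insulin-like growth factor genes. Contractile genes had 0 calls of 19 by edgeR and DESeq2, and 3 above and 1 below 0 with limma-voom. At an unadjusted p under 0.05 they had 4 above and 3 below, against 4511 of all 14184 tested genes in either direction. DESeq2 called 4 and 2 amino acid response genes, 4 and 0 heat shock genes, and 3 and 0 senescence genes. Its counts over all 14184 tested genes, 1349 above and 1299 below 0, were also larger than those of edgeR. Single libraries moved several of these counts. Heat shock genes above 0 became 0 without PDS replicate 3 or Braco-19 replicate 3 and 1 without PDS control replicate 2 or Braco-19 replicate 2. Growth factor genes above 0 became 1 without PDS replicate 2 or 3, Braco-19 replicate 2 or 3, or control replicate 3. Fatty acid genes below 0 became 2 without PDS replicate 2 or 3, PDS control replicate 2, Braco-19 replicate 2 or control replicate 3. Without Braco-19 replicate 1, 3 amino acid response genes were called below 0, 4 senescence genes above 0 and 3 insulin-like growth factor genes below 0. Without Braco-19 replicate 2 or control replicate 3, 1 amino acid response gene was called below 0. The senescence count was 1 without PDS replicate 3, PDS control replicate 2 or 3, Braco-19 replicate 2 or 3, or control replicate 1 or 3. Histone genes below 0 became 2 without Braco-19 replicate 1, and fatty acid genes above 0 became 2 without PDS control replicate 1. The contractile list gained 1 call without Braco-19 replicate 1 or 2 or control replicate 1 or 2. The insulin-like growth factor gene was lost in 9 of 12 omissions. Autophagy genes above 0 became 0 without PDS replicate 3 or Braco-19 replicate 3 and 2 without PDS control replicate 1 or Braco-19 replicate 1, and those below became 1 without PDS replicate 3, PDS control replicate 2, Braco-19 replicate 2 or control replicate 1.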
